A study of Mus musculus with 34 samples.

Results

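Interferon-stimulated genes are the genes that cells switch on when an interferon binds its receptor. A list of 39 of them was followed through 34 mouse libraries of MYC-driven liver tumors and livers that differ in *Arid1a*, the gene of a DNA-binding protein of the BAF (SWI/SNF) chromatin remodellers. Members were found by gene symbol, and all 39 were present in each of the 3 deposited tables, out of 46528 genes for mixed-strain tumors, 16140 for FVB tumors and 14074 for Rag1-/- livers. All tumor mice carried the LAP-tTA and TRE-MYC transgenes, in which a liver activator promoter drives a doxycycline-repressed transactivator and that in turn drives MYC. The WT groups had floxed *Arid1a* and no Cre, the Het groups had Arid1a fl/+ with Alb-cre (Cre under the albumin promoter), and the Homo group had Arid1a fl/fl with Alb-cre. The mixed-strain table (C57/B6, 129 and FVB) held 8 WT and 8 Het tumors from mice of about 90 days. The FVB table held 4 tumors of each genotype, and the mice were about 55 (WT), 70 (Het) and 100 (Homo) days old. The third table held livers of FVB Rag1-/- mice, which lack mature T and B cells, at about 42 days of age. They carried LAP-tTA and TRE-MYC with no floxed allele in the label (WT), and were collected 14 days after an adenovirus with Cre (ad-Cre, 3 livers) or with human ARID1A (ad-ARID1A, 3 livers).

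Several differences move with the groups and cannot be told apart from *Arid1a* here. Cre was present in Het and Homo tumors and absent from WT tumors, age rose from WT to Het to Homo in the FVB table, and the ad-Cre livers received Cre while the ad-ARID1A livers received none. The labels name the Rag1-/- samples liver in the tissue field and frozen liver tumor tissue in the source field. Whether each library is from its own mouse is not stated, and the p-values then cover the spread among these libraries alone, which may be technical. In bulk tissue, fewer cells of a type and less RNA per cell cannot be told apart.

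Type I and type III interferons act through receptors and the kinases JAK1 and TYK2 to bring a complex that holds STAT2 and IRF9 to interferon-stimulated response elements in promoters. Interferon-γ acts through gamma-activated sequences, and IRF1 is a classic target of that arm. The induced proteins sense foreign nucleic acid (MDA5, RIG-I), bind or degrade viral RNA (IFIT and OAS proteins), block entry or replication (IFITM3, MX proteins, viperin) or attach ISG15 to other proteins. In the liver, hepatocytes, Kupffer cells and other resident cells can all respond.

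Promoters are shown because the response element is the sequence through which most members are induced. RefSeq promoters (mouse build GRCm38.p6, 250 bases before to 50 after the start) were found for 29 of the 39 members. The core GAAANNGAAA, searched on both strands, was in 14 of these 29 (48.3%), against 3.99% of 27025 genes with a promoter in the same table. The gamma-activated core TTCNNNGAA was in 7 members (24.1%) and in 9.55% of all genes. In 10 members a response element core lay before the start. A match describes letters in this window and is not a bound site. Each stretch is 150 bases on the gene's strand, with core matches in capitals: for *Irf1* the gamma-activated core, for the others the response element core, which reads TTTCNNTTTC where it lies on the opposite strand.
Ifit1 (chr19:34640739-34640888, + strand): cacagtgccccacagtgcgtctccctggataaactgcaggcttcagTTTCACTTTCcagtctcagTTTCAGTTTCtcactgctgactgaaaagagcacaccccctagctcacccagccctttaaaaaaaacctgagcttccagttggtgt
Isg15 (chr4:156200819-156200968, - strand): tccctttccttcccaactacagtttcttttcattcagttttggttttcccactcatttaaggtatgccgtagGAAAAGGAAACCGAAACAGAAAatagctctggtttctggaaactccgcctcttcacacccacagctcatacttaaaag
Oas3 (chr5:120777660-120777809, - strand): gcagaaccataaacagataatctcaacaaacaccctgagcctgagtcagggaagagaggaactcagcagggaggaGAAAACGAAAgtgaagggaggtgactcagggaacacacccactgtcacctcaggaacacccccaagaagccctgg
Stat2 (chr10:128270248-128270397, + strand): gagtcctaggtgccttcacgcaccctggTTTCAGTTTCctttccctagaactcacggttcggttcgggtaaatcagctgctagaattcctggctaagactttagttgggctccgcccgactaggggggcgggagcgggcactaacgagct
Apol9a (chr15:77411081-77411230, - strand): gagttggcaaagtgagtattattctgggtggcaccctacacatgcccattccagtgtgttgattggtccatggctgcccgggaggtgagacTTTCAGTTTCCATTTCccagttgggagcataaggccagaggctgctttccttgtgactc
Apol9b (chr15:77728922-77729071, + strand): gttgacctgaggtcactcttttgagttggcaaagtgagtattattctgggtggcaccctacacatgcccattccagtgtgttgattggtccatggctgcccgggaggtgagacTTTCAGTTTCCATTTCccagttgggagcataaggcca
Irf1 (chr11:53769864-53770013, + strand): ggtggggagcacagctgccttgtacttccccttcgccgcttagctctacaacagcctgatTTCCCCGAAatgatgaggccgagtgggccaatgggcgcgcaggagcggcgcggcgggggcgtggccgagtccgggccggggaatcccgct

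The stretch ends 1 base before the start, except for *Stat2*, whose stretch begins 250 bases before it because its match lies 222 bases upstream. *Isg15* has 3 overlapping matches, and *Apol9a* and *Apol9b*, a near-identical pair, share the same block of 2 overlapping matches. *Ddx58*, *Eif2ak2*, *Ifih1* and *Ifitm3* also hold the response element core, after the start, and *Bst2*, *Ifit3*, *Oas1a* and *Rsad2* hold it before the start. These are not printed. *Apol9a*, *Apol9b* and *Irf1* were added to the printed set after their values were seen. The *Irf1* window that gave the printed stretch held no response element core. Its gamma-activated core lay 90 bases before the start. Another *Irf1* promoter window held neither core. The part of these cores in the members' levels was not tested.

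Recovered depth was 2278000 to 5284000 reads per library in the mixed-strain table, 6634000 to 12026000 in the FVB table and 8722000 to 10624000 in the Rag1-/- table. *Arid1a* itself did not pass the test in any comparison and its groups overlapped in all 5. It was at 314 to 490 CPM (a gene's reads scaled to a common library size) in mixed-strain WT and 250 to 330 in Het, and at 114 to 116 in ad-Cre and 111 to 149 in ad-ARID1A livers. The tables count whole mouse genes, so deleted exons are not seen apart and the human ARID1A of the virus has no row of its own. Summed hepatocyte markers ran from 2153 to 11570 CPM in mixed-strain tumors, 4185 to 13150 in FVB tumors and 70120 to 85140 in Rag1-/- livers. None of 6 B and plasma cell markers was listed in the Rag1-/- table, so they have no value there. Of 11 T and NK cell markers *Cd4* was the only one listed and tested there. Each table was normalized on its own, so levels are compared within a table only.

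The members varied more between libraries of a group than genes in general. The median standard deviation (SD) of the members, on the log2 scale, was 0.99 in mixed-strain WT and 1.0 in mixed-strain Het tumors, where the medians over all genes were 0.44 and 0.42. In the FVB table it was 0.57, 0.32 and 0.60 in WT, Het and Homo tumors, against 0.30, 0.23 and 0.28 for all genes. The livers were the most even, at 0.28 in ad-Cre and 0.29 in ad-ARID1A, against 0.19 for all genes in both. *Trim25*, an E3 ligase that activates the RNA sensor RIG-I, was the steadiest member in mixed-strain WT, mixed-strain Het, FVB WT and ad-ARID1A, with SDs of 0.17, 0.10, 0.15 and 0.07. These are descriptions, and the members were not matched to other genes on their level.

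**Figure D1:**
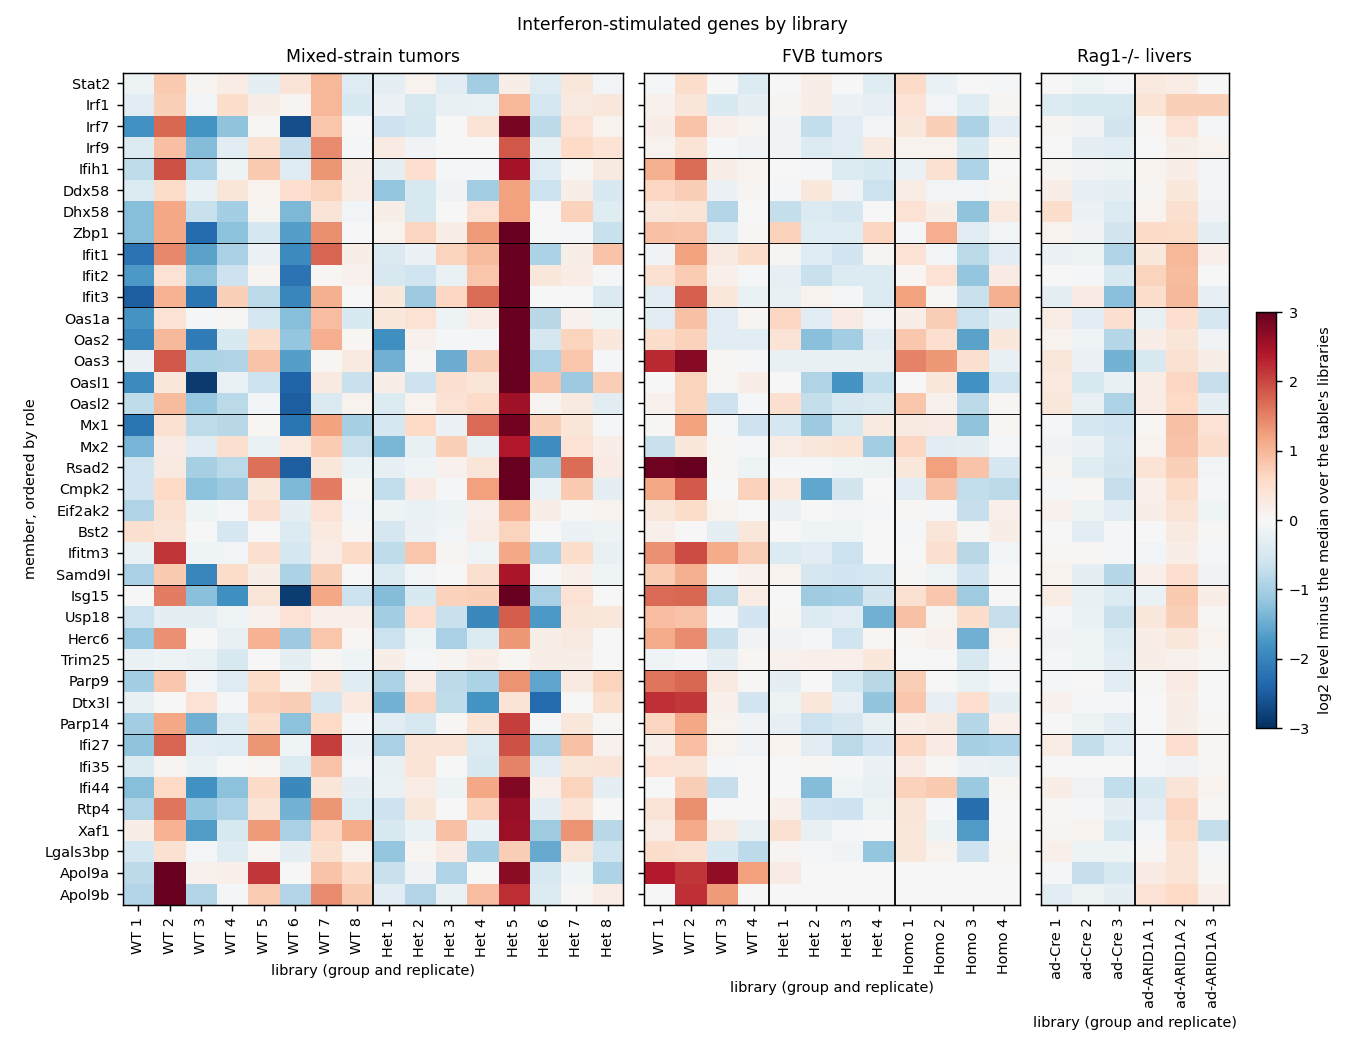
Level of each of the 39 members (rows, ordered by role) in each library (columns, by group and replicate), as the log2 level minus the median over the libraries of that table, with colors ending at 3 either way. Mixed-strain Het 5 is the most intense column, FVB WT 1 and WT 2 stand above the other FVB libraries in many rows, and Homo 3 is pale to blue.

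Some libraries were high or low in many members at once. Mixed-strain Het 5 had the highest level of all 16 libraries in 30 of 39 members (76.9%), and it was the highest in 12.1% of all genes. Its mean log2 level over the members was 6.07, while the next were WT 2 at 4.89 and WT 7 at 4.58 and the lowest was WT 6 at 2.84. Its summed member level was 3643 CPM, against 1011 to 2106 in the other 15 libraries. The RNA-binding IFIT family summed to 324 CPM in Het 5 and to between 4.26 and 49.6 in the others, and the OAS family to 298 against 5.76 to 55.3. The 9 members that peaked elsewhere were *Ifitm3*, *Herc6*, *Apol9a* and *Apol9b* in WT 2, *Stat2*, *Irf1* and *Ifi27* in WT 7, *Dtx3l* in WT 6 and *Trim25* in Het 4.

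Other genes moved with that library. Genes that respond to interferon-γ (guanylate-binding proteins, immunity-related GTPases and chemokines) summed to 958 CPM in Het 5 and to 106 to 528 in the others, and 11 of the 15 were highest there. *Gbp2* was at 102 CPM and the chemokine *Cxcl10* at 123. T and NK cell markers summed to 48.4 CPM against 4.52 to 34.1, with 7 of 11 highest there. Biliary markers summed to 478 CPM against 5.09 to 183, with *Epcam* at 169, *Krt7* at 153 and *Krt19* at 143, while *Sox9* was at 3.72. Of the interferon genes, *Ifnk* was also highest in Het 5, at 4.35 CPM against 0.38 to 2.84 in the others. *Ifng* was at 0.31 CPM in Het 5 and at 0.49 in Het 4. *Ifnl3* was at 0.62 CPM and *Ifnl2* at 0.31 in Het 5, levels of 2 and 1 reads at that depth. Both of these were listed at 0 in the other 15 libraries. The part of these genes and cells in the members' levels was not tested.

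In the FVB table WT 2 was highest in 24 of 39 members, against 16.2% of all genes, and WT 1 in 4 (10.3%), against 11.4% of all genes. Homo 3 was lowest in 21. WT 1 and WT 2 had mean member levels of 3.71 and 4.21, above the other 10 libraries, which ran from 2.46 to 3.44. The same 2 libraries had the highest absolute loadings on the first principal component of the whole table, which held 26.5% of its variance. WT 1 and WT 2 also had the highest erythroid sums (456 and 460 CPM, with 21.2 to 96.7 in the others) and the highest endothelial sums (225 and 263 CPM). In WT 2 the macrophage sum (544 CPM) and the stellate sum (706 CPM) were the highest of the table. All 8 neutrophil markers were highest in Homo 3. The part of these cells in the members' levels was not tested. In the Rag1-/- table ad-ARID1A 2 was highest in 33 of 39 members, against 16.4% of all genes, and ad-Cre 3 was lowest in 27. The share of all genes that were lowest in Homo 3 or in ad-Cre 3 was not taken.

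**Figure D2:**
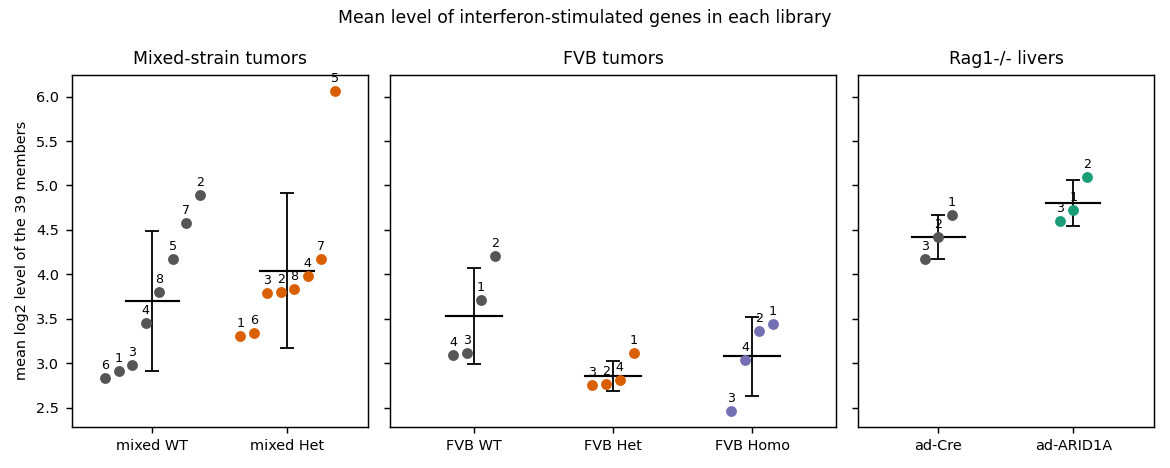
Mean log2 level of the 39 members in each library (points, numbered by replicate), by group, with bars for the group mean and SD. Het 5 stands alone at 6.07 in the mixed-strain panel, WT 1 and WT 2 lie above every Het and Homo tumor in the FVB panel, and the ad-Cre and ad-ARID1A livers overlap.

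In mixed-strain tumors, no member differed between Het and WT past the test. By limma with Benjamini-Hochberg adjustment over 17552 genes, 0 of 39 members passed, where 0.16% of all genes did (0.0399% higher and 0.12% lower), and 6 had an unadjusted p under 0.05, where 15.8% of all genes did. Every member's groups overlapped, as did nearly all genes (0.057% were separated higher and 0.0798% lower). The log2 fold change was above 0 for 26 members and below 0 for 13, with a median of 0.34 against 0.05 over all genes, and 56.1% of all genes were above 0 and 43.9% below. Without Het 5 the median was 0.13. The highest fold changes belonged to *Oasl1*, *Mx1*, *Ifit3* and *Ifi44*. Without Het 5 they were 1.14 for *Oasl1*, 1.03 for *Mx1* and 0.85 for *Ifi44*, smaller and still above 0.

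Among the transcription factors, *Stat2*, which carries the transactivation domain of the response complex, had the smallest p. It ran from 53.6 to 142 CPM in WT, with a median of 78.4, and from 33.8 to 88.9 in Het, with a median of 62.0. The ranges overlapped from 53.6 to 88.9 CPM, and the log2 fold change was -0.40 ± 0.22 (SE, limma adjusted p = 0.38). *Irf7*, the factor that amplifies interferon production, ran from 2.51 to 62.1 CPM in WT and from 10.6 to 138 in Het. Het 5 held the highest *Irf7* value and WT 2 the highest among WT tumors.

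The sensor *Zbp1*, which binds Z-form nucleic acid, ran from 0.28 to 9.78 CPM in WT, with a median of 1.72. In Het it ran from 1.97 to 32.8 with a median of 3.86, and the log2 fold change was 1.12 ± 0.57 (limma adjusted p = 0.345). Het 5 was again the high value, Het 4 was next at 8.99, and without Het 5 the log2 fold change was 0.77. All 3 members of the IFIT family were above 0, by 1.02 to 1.23. *Ifit2* ran from 2.01 to 15.3 CPM in WT, with a median of 9.45, and from 7.28 to 91.4 in Het, with a median of 12 (log2 fold change 1.02 ± 0.48, limma adjusted p = 0.32). Of the Het libraries other than Het 5 the highest was at 20.4, and without Het 5 the log2 fold change was 0.65.

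All 5 members of the OAS family, which includes the enzymes that make the 2-5A signal for RNA decay, were above 0. *Oasl1*, a family member without that activity, had the highest log2 fold change of all members, 1.52 ± 0.56 (limma adjusted p = 0.22). It ran from 1.13 to 14.5 CPM in WT, with a median of 7.0, and from 5.06 to 107 in Het, with a median of 15.5. *Mx1*, an antiviral dynamin-like GTPase, had a median of 0.81 CPM in WT and of 2.69 in Het, with highest values of 4.74 and 16.5 (1.35 ± 0.53, limma adjusted p = 0.24). *Ifi44*, an interferon-induced protein of less certain function, had medians of 3.66 and 7.14 CPM and highest values of 9.63 and 45.2 (1.17 ± 0.48, limma adjusted p = 0.255). In each of these genes WT and Het libraries overlapped.

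*Trim25* had the smallest p of all members in this comparison. It ran from 236 to 339 CPM in WT, with a median of 293, and from 319 to 382 in Het, with a median of 361. The upper WT libraries reached into the Het range, and the log2 fold change was 0.27 ± 0.08 (limma adjusted p = 0.15). *Dtx3l*, an E3 ligase that works with PARP9, went the other way. It ran from 70.0 to 168 CPM in WT and from 19.4 to 157 in Het, with medians of 112 and 79.1 (-0.78 ± 0.39, limma adjusted p = 0.34). Hepatocyte markers had values below 0 in Het for 9 of 9 genes, neutrophil markers for 8 of 8, erythroid for 6 of 6, stellate for 7 of 8 (median -1.40), endothelial for 6 of 8 (-0.90) and macrophage for 10 of 12, and of all marker genes the macrophage receptor *Cd163* passed the test (-2.25 ± 0.41, limma adjusted p = 0.032). The part of these cells in the members' values was not tested.

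In FVB tumors, members were mostly lower in Het than in WT. *Apol9a* passed the test, 9 members including it had every Het library below every WT library, and of the role groups the ADP-ribosylation enzymes had the lowest median log2 fold change (-1.27). By limma with Benjamini-Hochberg adjustment over 16140 genes, 1 of 39 members passed, where 0.0248% of all genes did, all of them lower. The 9 separated members are 23.1% of the list, where 2.47% of all genes were separated lower and 4.41% higher. The log2 fold change was below 0 for 35 members and above 0 for 4, with a median of -0.64 against 0.02 over all genes, and 46.9% of all genes were below 0 and 52.6% above. An unadjusted p under 0.05 was seen for 14 of 39 members and for 14.2% of all genes. With WT 1 and WT 2 both left out, an alternative chosen after their levels were seen, the median was -0.14 and no member passed.

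*Apol9a* encodes a cytoplasmic apolipoprotein L family protein and is strongly induced by interferon in mouse tissue. It lies at chr15:77403789-77411135 (GRCm38, - strand). Its level was 5.24, 4.41, 6.32 and 2.35 CPM in the 4 WT tumors. In Het tumors it was 1.19 CPM in Het 1 and listed at 0, meaning at or below 1 CPM, in the other 3. The groups did not overlap, and the log2 fold change on the deposited scale, where that floor is 0, was -2.04 ± 0.29 (limma adjusted p = 0.0465). The 3 FVB groups shared 1 fit, in which the SD was 0.125 in Het and 0 in Homo, against 0.62 in WT. The floor thus held the shared spread down, so the SE and the adjusted p may be too small. Over the alternatives run, the limma adjusted p was 0.00157 to 0.224. It was above 0.05 without WT 2 (0.143), WT 3 (0.0791), Het 1 (0.0519), Het 2 (0.133) or Het 3 (0.224), and when the Homo tumors were left out of the fit (0.0829).

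*Ifitm3*, a membrane protein that stops enveloped viruses from fusing in endosomes, lies at chr7:141009586-141010770 (GRCm38, - strand). It was at 39.7, 59.7, 33.4 and 25.6 CPM in WT and at 11.6, 12.2, 9.78 and 15.4 in Het. The groups did not overlap and lay well apart, with a log2 fold change of -1.64 ± 0.29 (limma adjusted p = 0.055). Its limma adjusted p was 0.0185 without WT 4 and 0.0283 without Het 4. In those settings 1.74% and 1.12% of all genes passed, against 0.0248% with all libraries. Of the 8 antiviral effectors, 7 had log2 fold changes below 0, with a median of -0.72. *Rsad2* (viperin, which makes a nucleotide that ends viral RNA chains) was at 49.5 and 53.1 CPM in WT 1 and WT 2 and at 6.77 and 5.90 in WT 3 and WT 4, while the Het tumors were at 6.28, 6.28, 5.94 and 5.90. Its difference (-1.56 ± 0.65, limma adjusted p = 0.293) had 2 WT tumors far above the Het tumors and the other 2 level with them.

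The 3 members of the ADP-ribosylation group were all lower. *Parp9*, the partner of DTX3L, was at 40.5, 44.3, 16 and 13.6 CPM in WT and at 10.8, 13.3, 9.25 and 7.46 in Het. WT 1 and WT 2 were far above the rest, and the lowest WT tumor was just above the highest Het tumor (-1.32 ± 0.37, limma adjusted p = 0.138). The limma adjusted p of *Parp9* was under 0.05 without WT 4, where 1.74% of all genes passed. *Parp14*, a mono-ADP-ribosyltransferase, was at 51.3, 72.5, 35.0 and 30.5 CPM in WT and at 27.5, 20.8, 23.1 and 28.1 in Het, also without overlap (-0.85 ± 0.28, limma adjusted p = 0.19). *Dtx3l* was at 154 and 147 CPM in WT 1 and WT 2 and at 37.5 and 22.6 in WT 3 and WT 4. Its Het values of 30.7, 43.1, 28.4 and 14.9 overlapped with the latter pair.

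Among the sensors, *Ifih1* (MDA5, which detects long double-stranded RNA) was at 22.0, 33.8, 12.2 and 11.3 CPM in WT and at 10.6, 10.2, 8.0 and 7.67 in Het. The groups did not overlap, and WT 3 and WT 4 were close to the Het tumors (-0.99 ± 0.35, limma adjusted p = 0.23). *Irf7* was at 13.2, 20.8, 12.8 and 12.1 CPM in WT and at 10.7, 6.92, 9.06 and 10.9 in Het, again without overlap (-0.64 ± 0.32, limma adjusted p = 0.40). *Ifit2* was at 9.92, 12.3, 8.0 and 6.92 CPM in WT and at 6.11, 4.53, 5.43 and 5.46 in Het (-0.76 ± 0.32, limma adjusted p = 0.30). For these 3 genes WT 2 was the highest of all 12 libraries.

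*Oas3*, which makes 2-5A on long double-stranded RNA, was at 5.50, 7.67, 1.21 and 1.12 CPM in WT and listed at 0 in all 4 Het tumors. The separation rests on WT values just above the 1 CPM floor in 2 tumors. No fold is given, and the difference on the deposited scale, where the floor is 0, was -1.46 ± 0.58 (limma adjusted p = 0.27). *Isg15*, the ubiquitin-like modifier, was at 6.87, 6.92, 1.21 and 2.44 CPM in WT and at 2.08, 1.04 and 1.44 in Het 1, 3 and 4, with Het 2 listed at 0. These groups overlapped (-1.37 ± 0.55, limma adjusted p = 0.28). *Eif2ak2*, the kinase PKR, was separated as well, by -0.33 ± 0.18.

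*Trim25* was separated in the other direction. It was at 223, 237, 198 and 252 CPM in WT and at 265, 269, 271 and 300 in Het, a log2 fold change of 0.28 ± 0.12 (limma adjusted p = 0.30). *Stat2* and *Irf1* had values near 0 (-0.05 ± 0.21 and 0.03 ± 0.22). Neutrophil markers summed to 2.53 to 95.7 CPM in WT and to 0 to 1.19 in Het, and erythroid markers to 21.2 to 460 and to 23.3 to 26.2. The stellate cell marker *Lrat* passed the test (-2.50 ± 0.31, limma adjusted p = 0.023), while its list overlapped, at 426 to 706 CPM in WT and 425 to 586 in Het. Of 11 T and NK cell markers 9 were not listed in the FVB table and so were not tested. The part of these cells in the members' values was not tested.

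The FVB Homo tumors were compared with the same 4 WT tumors, so the 2 comparisons share their controls. *Apol9a* was listed at 0 in all 4 Homo tumors, so no fold is given. On the deposited scale its difference was -2.10 ± 0.29 (limma adjusted p = 0.030), the only one of 39 to pass, where 0.0434% of all genes passed (0.031% lower and 0.0124% higher). In Homo tumors the floor left an SD of 0, against 0.62 in WT, so the SE and the adjusted p may be too small. The limma adjusted p of *Apol9a* was above 0.05 without WT 2 (0.106), without WT 3 (0.0924) and without any 1 of the Homo tumors (0.0531 to 0.155). It was also above 0.05 with the Het tumors left out of the fit (0.143). *Ifitm3* was the other member without overlap, at 15.2, 21.3, 8.63 and 14.5 CPM in Homo against the WT values above (-1.41 ± 0.29, limma adjusted p = 0.11). Without WT 4 that limma adjusted p was 0.0466, in a setting where 0.316% of all genes passed. Separation in the lower direction was seen for 1.98% of all genes and in the higher direction for 2.09%.

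For the list as a whole, the log2 fold change was below 0 for 31 and above 0 for 8, with a median of -0.38 against -0.02 over all genes, where 52.8% were below 0 and 46.6% above. An unadjusted p under 0.05 was seen for 5 of 39 members and for 10% of all genes. With WT 1 and WT 2 left out, the median was 0.035. *Irf7* was at 14.6, 18.9, 5.94 and 9.13 CPM in Homo, overlapping with WT (-0.38 ± 0.32, limma adjusted p = 0.764). *Ifih1* was at 9.19, 14.5, 5.62 and 10.6 CPM in Homo (-0.92 ± 0.35, limma adjusted p = 0.40) and *Parp9* at 22.3, 13.4, 11.6 and 12.7 (-0.79 ± 0.37, limma adjusted p = 0.50), both overlapping with WT. *Ifit1*, which binds foreign RNA caps, was at 4.06, 10.1, 5.28 and 6.28 CPM in WT and at 5.90, 4.14, 2.51 and 3.51 in Homo (-0.67 ± 0.33, limma adjusted p = 0.53). *Oasl1* was at 4.23, 6.73, 4.38 and 4.89 CPM in WT and at 4.29, 5.35, 1.21 and 2.81 in Homo (-0.74 ± 0.45, limma adjusted p = 0.63). In each of these, Homo 3 held the lowest Homo value. *Herc6*, the mouse ligase for ISG15, was at 19.0, 23.4, 5.58 and 8.17 CPM in WT and at 9.19, 9.71, 3.23 and 9.51 in Homo. Its log2 fold change of -0.72 ± 0.45 (limma adjusted p = 0.65) became 0.10 with WT 1 and WT 2 left out. Stellate markers were below 0 in Homo for 8 of 8 genes (108 to 662 CPM in sum, against 426 to 706 in WT), endothelial markers for 7 of 8 (94.1 to 170 against 115 to 263) and erythroid markers for 6 of 6 (27.8 to 96.7 against 21.2 to 460), none past the test. The part of these cells in the members' values was not tested.

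Between Homo and Het tumors no member passed limma's test, and no gene of 16140 did (0% called). An unadjusted p under 0.05 was seen for 1 member, *Trim25*, and for 3.86% of all genes. *Trim25* was at 240, 244, 175 and 236 CPM in Homo, below all 4 Het tumors (-0.32 ± 0.12, limma adjusted p = 1), where 1.75% of all genes were separated lower and 0.923% higher. The log2 fold change was above 0 for 30 members, below 0 for 7 and 0 for 2, with a median of 0.20 against -0.04 over all genes, where 41% were above 0 and 57.9% below. Neutrophil markers were above 0 for 8 of 8 genes (1.80 to 148 CPM in sum, against 0 to 1.19 in Het) and erythroid markers for 5 of 6 (27.8 to 96.7 against 23.3 to 26.2), and their part was not tested.

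In Rag1-/- livers, members were mostly higher with the ARID1A virus than with the Cre virus, by small amounts. *Irf1* passed the test and 11 members were separated. By limma with Benjamini-Hochberg adjustment over 14074 genes, 1 of 39 members passed, where 0.32% of all genes did (0.277% higher and 0.0426% lower). The 11 separated members are 28.2% of the list, where 13.9% of all genes were separated higher and 3.47% lower. The log2 fold change was above 0 for 36 members, below 0 for *Oas1a* and *Ifi35* and 0 for *Ifitm3*, with a median of 0.34 against 0.09 over all genes. An unadjusted p under 0.05 was seen for 14 of 39 members and for 12.5% of all genes. The whole table leaned the same way, with 66% of all genes above 0 and 33.4% below. Centring each library on its median, which shifted every difference by 0.10, left 47.3% of all genes and 34 members above 0, with a member median of 0.24, and *Ifitm3*, *Dtx3l* and *Xaf1* were then below 0.

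*Irf1* encodes a transcription factor that is itself induced by interferon-γ and binds response elements. It lies at chr11:53770014-53778374 (GRCm38, + strand). It was at 11.9, 11.3 and 11.2 CPM in ad-Cre livers and at 20.7, 25.6 and 25.8 in ad-ARID1A livers. The 3 control values were nearly equal and every ad-ARID1A value was well above them. The mean log2 level was 3.52 ± 0.04 and 4.58 ± 0.18 (SD, n = 3 each), a 2.09-fold difference (log2 fold change 1.06 ± 0.14, limma adjusted p = 0.025). It remained past the threshold with median-centred libraries (0.0457), and not when any 1 of the 6 livers was left out (0.052 to 0.106). The gene overlaps an antisense gene, *Gm17334*, over 135 of its 3976 exon bases.

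The other transcription factors had smaller differences. *Stat2* was at 119, 110 and 116 CPM in ad-Cre and at 146, 140 and 121 in ad-ARID1A (0.24 ± 0.09, limma adjusted p = 0.34), and *Irf9* was also separated (0.30 ± 0.11). *Zbp1* had the smallest p among the sensors, at 9.45, 8.11 and 5.98 CPM in ad-Cre and at 13, 12.7 and 7.31 in ad-ARID1A, with overlap (0.47 ± 0.27, limma adjusted p = 0.52). *Ifit1* was at 9.19, 9.25 and 5.50 CPM in ad-Cre and at 12.7, 20.5 and 11.5 in ad-ARID1A. Its promoter holds 2 response element cores among the printed stretches. The groups did not overlap and ad-ARID1A 2 was far above the rest (0.89 ± 0.28, limma adjusted p = 0.23). *Ifit2* and *Ifit3* had log2 fold changes of 0.71 ± 0.26 and 0.86 ± 0.41 with overlap.

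By role, the median log2 fold change was 0.86 in the IFIT family (3 of 3 above 0), 0.49 in the antiviral effectors (7 of 8), 0.45 in the OAS family (4 of 5) and 0.22 in the ADP-ribosylation group (3 of 3). *Mx2*, the cytoplasmic relative of the nuclear *Mx1* in the mouse, is annotated as a polymorphic pseudogene. It was at 20.1, 19.0 and 15.1 CPM in ad-Cre and at 23.3, 39.1 and 31.1 in ad-ARID1A (0.76 ± 0.19, limma adjusted p = 0.16). *Usp18*, the protease that removes ISG15 and restrains the receptor, was at 18.0, 16.1 and 11.8 CPM in ad-Cre and at 23.6, 30.5 and 19.3 in ad-ARID1A (0.67 ± 0.21, limma adjusted p = 0.23). Neither gene's groups overlapped. *Oas2*, at 11.9, 10.1 and 6.06 CPM against 12.7, 14.2 and 10.3, did overlap (0.45 ± 0.26, limma adjusted p = 0.52). So did *Parp14*, at 117, 105 and 93.7 CPM against 115, 131 and 121 (0.22 ± 0.10, limma adjusted p = 0.41).

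The *Apol9* pair was separated. *Apol9a* was at 35.5, 22.8 and 26.2 CPM in ad-Cre and at 43.1, 48.2 and 37.5 in ad-ARID1A (0.63 ± 0.17, limma adjusted p = 0.17). *Apol9b* was at 39.4, 44.6 and 40.2 CPM in ad-Cre and at 67.2, 75.1 and 55.0 in ad-ARID1A (0.66 ± 0.12, limma adjusted p = 0.068), and passed without ad-ARID1A 3 (0.0499). Of 50-base stretches of the longest *Apol9b* transcript, 51.4% also occur in transcripts of *Apol9a*, so reads could be split between them. Of those of the longest *Apol9a* transcript, 0 of 4197 occur in another gene. *Ifitm3* was at 269, 263 and 249 CPM in ad-Cre and at 240, 294 and 249 in ad-ARID1A, with equal means. *Trim25* was separated here too, at 140, 130 and 115 CPM against 160, 156 and 145 (0.27 ± 0.09, limma adjusted p = 0.30). All 8 stellate cell and fibroblast markers and all 8 endothelial markers had higher values with the ARID1A virus, none past the test. They summed to 281 to 508 and 313 to 352 CPM in ad-Cre and to 478 to 557 and 362 to 396 in ad-ARID1A. Of 12 macrophage and Kupffer cell markers 8 were below 0 and 4 above (median -0.07). Of 9 hepatocyte markers 7 were below 0 and 2 above (median -0.12). None of these passed the test. Of 7 plasmacytoid dendritic cell markers, *Siglech*, *Pacsin1*, *Klk1* and *Cox6a2* were not tested here. The other 3 (*Ccr9*, *Ly6d* and *Tcf4*) were above 0, none past the test. Their sums did not overlap (44.8 to 48.1 CPM in ad-Cre and 53 to 56 in ad-ARID1A). The smallest p of that list was that of *Ccr9* (1.24 ± 0.28, limma adjusted p = 0.121). The part of these cells in the members' values was not tested.

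**Figure D3:**
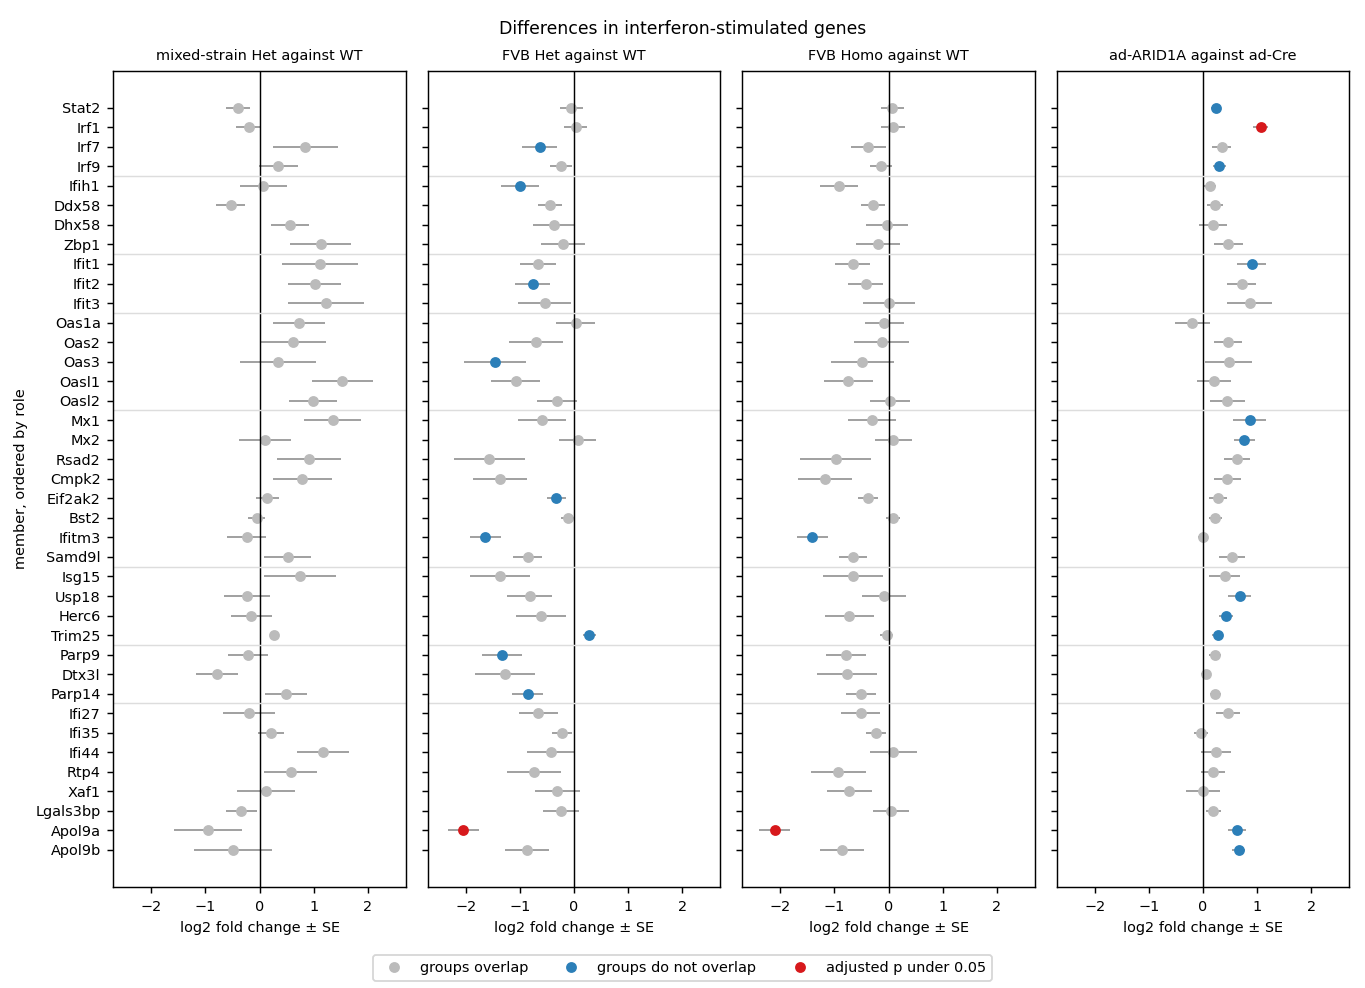
Log2 fold change (points, with SE bars) of each member, ordered by role, in 4 comparisons, with members past an adjusted p of 0.05 in red and other members whose groups do not overlap in blue. Het against WT is mostly above 0 in mixed-strain tumors and below 0 in FVB tumors, and the Rag1-/- livers lie mostly above 0 with short bars.

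**Figure D4:**
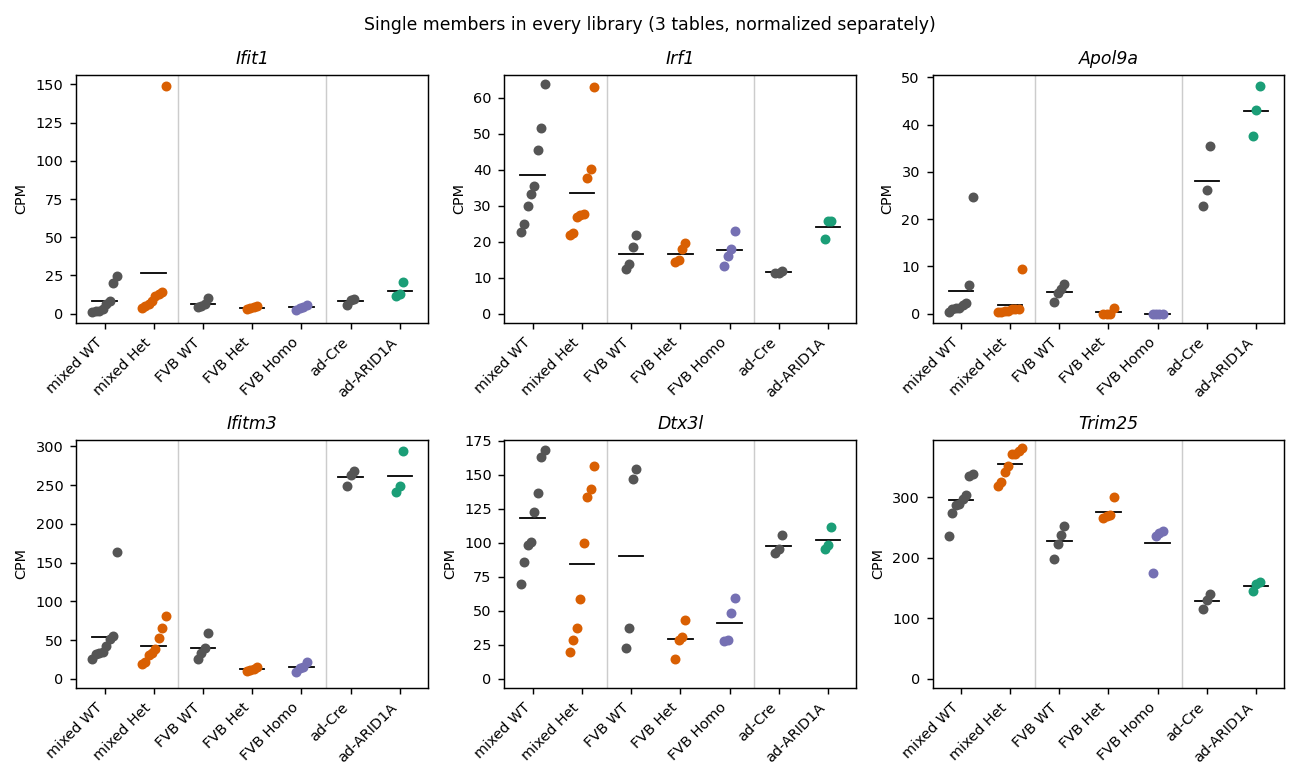
CPM (linear axis) of 6 members in every library (points, with a line at the group mean), by group, with the 3 separately normalized tables divided by grey lines. *Ifit1* has 1 point far above the rest (Het 5, 149 CPM), *Irf1* is separated in the livers, and *Apol9a* and *Ifitm3* are lower in FVB Het and Homo than in FVB WT.

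Of the other genes of the pathway reported here, none passed the test in any comparison. Of 10 interferon genes only *Ifnk* (interferon-κ) could be tested, the others being too low or not listed. Its log2 fold changes were 0.77 ± 0.33 in mixed-strain Het, 0.31 ± 0.24 in FVB Het, 0.60 ± 0.24 in FVB Homo and 0.43 ± 0.30 in ad-ARID1A. Of the receptors, all 6 were tested in tumors and 5 in livers, and the smallest p in mixed-strain tumors was that of *Ifnar2* (-0.51 ± 0.17, limma adjusted p = 0.17). In the induction pathway, the RIG-I adaptor *Mavs* had a log2 fold change of -0.54 ± 0.12 in mixed-strain Het (limma adjusted p = 0.083).

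Of 8 negative regulators 6 were tested in FVB tumors, and the smallest p in FVB Homo tumors was that of *Adar*, the editor of double-stranded RNA (-0.59 ± 0.18, limma adjusted p = 0.28). Of the 15 genes that respond to interferon-γ, the median was 0.34 in mixed-strain Het, -0.39 in FVB Het, -0.08 in FVB Homo and 0.15 in ad-ARID1A, over the 14, 12, 12 and 14 tested. *Iigp1*, an immunity-related GTPase, had the smallest p in FVB Het (-1.40 ± 0.45, limma adjusted p = 0.18), *Gbp2* in mixed-strain Het (0.97 ± 0.41, limma adjusted p = 0.27) and *Igtp* in the livers (0.38 ± 0.10, limma adjusted p = 0.17).

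Several members share sequence with other genes, so their counts are uncertain. Each member's longest transcript was cut into 50-base stretches. Of these, 57.6% of those of *Oas1a* occur in *Oas1g* and 51.2% of those of *Ifit3* in *Ifit3b*. For *Herc6* 23.8% occur in *Gm45193*, and for *Rtp4* 13.6% in *Gm45338*. *Parp9* and *Dtx3l* lie head to head on opposite strands of chromosome 16 and share 458 exon bases. The sources used here do not say whether counting used strand, so reads from that overlap cannot be assigned to either gene.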

How the data were processed

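RNA from frozen mouse tissue, taken up in Trizol and purified with a miRNeasy kit, was made into Nugen libraries, per the labels' protocols. Reads were handled with HISAT2, featureCounts, Trim Galore and SAMtools on GRCm38 (mm10), per the submitters' processing notes, which give no versions. The authors deposited 3 tables of log2 values. The FVB and Rag1-/- tables are deposited as log2 CPM, with values at or below 1 CPM listed at 0. The mixed-strain table is named RPKM by the authors, but its deposited log2 values sum to 999553 to 999898 per library once the log is undone, so they were read as CPM. Depth was recovered from the size of the lowest steps of CPM, and no count test was run because higher values are rounded too coarsely.

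Each table was fitted with limma 3.58.1 (R 4.3.3, eBayes with trend) and adjusted by Benjamini-Hochberg over all its tested genes, with a threshold of 0.05. The mixed-strain fit used log2(CPM + 0.5) and genes with a mean of at least 0.5 CPM. The others used the deposited log2 CPM and genes with a mean of at least 0, and the 3 FVB groups shared 1 fit. Fold changes on these scales understate changes of low genes. The fit was tested on simulated data with independent genes of equal dispersion and large changes in genes above the floor. That test does not cover libraries that shift as a whole, genes at the floor or small changes. Samples were grouped by their titles and the genotype field, since the treatment text describes Het and Homo in the same words. The description labels of the 3 ad-ARID1A samples name ad-Cre columns, and their columns were matched by the group in the title and the number in the description, on which each ad-ARID1A value rests.

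The 39 members, the pathway lists and the marker lists were chosen with earlier results of these data known. Values per library are given for members past the threshold, for up to 6 members per comparison whose groups do not overlap, and for the member with the smallest p of each role group. Genes named in a comparison outside that rule were chosen after their values were seen: *Irf7* in mixed-strain tumors, *Rsad2*, *Dtx3l*, *Trim25*, *Eif2ak2*, *Stat2* and *Irf1* in FVB Het, and *Stat2*, *Irf9*, *Ifit2*, *Ifit3*, *Ifitm3* and *Trim25* in the livers. Alternatives were other pseudocounts, filters, centring, array weights, the 2 groups alone, a replicate block and leaving out libraries. 1 gene of the pathway lists is not reported here.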

Additional observations from a re-analysis of the deposited data

Results flagged for a closer look

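Within groups of 4 to 10 libraries, the highest or lowest library was compared with its nearest neighbour by Dixon's test, for each member and for the mean member level, and 36 of 200 tests (18%) passed, where chance gives about 1 in 20. All values here are log2 levels of the single library that stood apart, and members share libraries, so these results are not independent.

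Mixed-strain Het 5 stood apart, on the high side, in its mean member level (6.07) and in 18 members. They were *Irf7* (7.11), *Irf9* (6.38), *Isg15* (6.26), *Ifit1* (7.23), *Ifit2* (6.52), *Ifih1* (6.67), *Oas1a* (5.24), *Oas3* (6.03), *Oasl1* (6.74), *Oasl2* (5.83), *Cmpk2* (6.25), *Ifi35* (5.90), *Ifi44* (5.51), *Parp14* (7.52), *Rtp4* (5.74), *Samd9l* (6.35), *Eif2ak2* (6.66) and *Apol9a* (3.30). In mixed-strain WT tumors, WT 2 stood apart in *Ifitm3* (7.36) and *Apol9b* (5.14), and WT 7 in *Ifi35* (5.27).

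In FVB tumors, WT 2 was high in *Irf7* (4.38). Among Het tumors, Het 4 was high in *Trim25* (8.23) and low in *Mx2* (2.0) and *Lgals3bp* (5.37), Het 2 was low in *Ifi44* (1.31), and Het 1 was high in *Samd9l* (3.59) and in *Apol9a* (0.25), the other 3 being listed at 0. Homo 3 was low in *Irf9* (3.89), *Dhx58* (0.86), *Mx1* (0.00), *Parp14* (4.18), *Rtp4* (0.00), *Trim25* (7.45) and *Herc6* (1.69). The cause was not tested.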

How the results depend on the processing

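The members passing numbered 0 under every alternative run for mixed-strain Het and for FVB Homo against Het. For FVB Het and for FVB Homo against WT, 1 member passed in the analysis as reported and 0 when genes under a mean of 2 (log2 CPM) were dropped (27 members tested, *Apol9a* not among them), 0 with genes above 0 in every library (31 tested, also without it), 0 with only the groups compared, and 0 with WT 1 and WT 2 left out. With array weights 14 of 39 members passed in FVB Het, where 14.17% of all genes did. In FVB Homo 1 of 39 passed, where 0.13% of all genes did. Leaving out 1 library gave 0 to 3 members in FVB Het, 0 to 2 in FVB Homo and 0 to 1 in the livers, where the 1 was *Apol9b*. The 3 in FVB Het came without WT 4, where 1.74% of all genes passed, against 0.0248% with all libraries. Without Het 4, 1.12% of all genes passed. The 2 in FVB Homo also came without WT 4, where 0.316% of all genes passed, against 0.0434% with all libraries. In the livers the 1 came without ad-ARID1A 3, where 0.206% of all genes passed.

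Leaving out 1 library put the members' median log2 fold change at 0.13 (without Het 5) to 0.47 in mixed-strain tumors, -0.79 to -0.42 in FVB Het, -0.61 to -0.20 (without Homo 3) in FVB Homo, 0.12 to 0.39 in Homo against Het and 0.19 to 0.48 in the livers. With WT 1 and WT 2 left out, it was -0.14 in FVB Het and 0.035 in FVB Homo, and *Herc6* in FVB Homo was at 0.10.

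Same-numbered libraries deviated together (correlation over 0.1) in at most 2 of 4 pairs in FVB tumors, 1 of 8 in mixed-strain tumors and 0 of 3 in the livers. The control library that correlated best had the same number for 3 of 4 FVB Homo and 2 of 4 FVB Het tumors. It did for 2 of 8 mixed-strain Het tumors and 1 of 3 ad-ARID1A livers. The labels do not say that the numbers pair samples, so they were not taken as pairs, and pairing in FVB tumors remains possible. With the replicate block 0 members passed in FVB Het and 0 in FVB Homo (limma adjusted p of *Apol9a* 0.0685 and 0.0522), 1 in the livers and 0 in the other comparisons, and of all genes 75 passed in mixed-strain tumors, against 28 without it. Members near the 1 CPM floor, such as *Oas3* and *Apol9b* in FVB tumors, have no measured fold.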
